A study of Mus musculus with 4 samples.

Results

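The non-coding snoRNA host genes described here are 10 of the 55401 rows of a gene count table: Snhg1, Snhg3, Snhg5, Snhg6, Snhg8, Snhg12, Snhg16, Snhg17, Gas5 and Zfas1. They were chosen by symbol as short, spliced, non-coding hosts of small nucleolar RNAs (snoRNAs). RefSeq classes all 10 as lncRNA, with spans from 785 to 7823 bp, and places at least 1 snoRNA inside each span, 34 in all. All 10 passed the filter on low counts. The table comes from 4sU-seq, which sequences RNA that took up the uridine analogue 4-thiouridine and was caught through biotin on streptavidin beads. The cells were 129/Ola mouse embryonic stem cells in which SNRNP70, a protein of the U1 small nuclear ribonucleoprotein (U1 snRNP), carries a tag that lets auxin trigger its degradation. There were 2 libraries of cells without the auxin IAA (0 h) and 2 of cells kept in IAA for 5 h. All were grown in serum with leukemia inhibitory factor and share the degron line according to the titles, although the genotype label calls the 0 h cells wild type. Neither the number of clones behind the line nor the length of the 4sU pulse nor a spike-in is named in the sources used here.

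snoRNAs guide chemical marking of ribosomal RNA: box C/D snoRNAs direct 2'-O-methylation and box H/ACA snoRNAs direct pseudouridylation. In mammals most lie in introns, so that splicing of the host, opening of the intron lariat and trimming of its ends release them. U1 snRNP recognises the 5' splice site of introns and also protects nascent transcripts from early cleavage and polyadenylation. The spliced exons of many non-coding hosts are short-lived, since they are read by ribosomes and degraded by nonsense-mediated decay, and many begin with the terminal oligopyrimidine (TOP) sequence known from ribosomal protein genes.

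The starts of 6 hosts are printed because hosts of this family are known for pyrimidine runs at their 5' end. The host starts with the shortest runs are not among them. Each line holds 100 bases of the host's own strand from the RefSeq promoter table (GRCm38.p6), 50 on either side of the annotated start, and capitals mark the longest unbroken run of C or T within 20 bases of that start.
Snhg12, chr4:132308628-132308727, plus strand: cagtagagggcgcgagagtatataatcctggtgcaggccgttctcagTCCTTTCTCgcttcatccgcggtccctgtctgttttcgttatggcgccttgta
Snhg8, chr3:123508287-123508386, minus strand: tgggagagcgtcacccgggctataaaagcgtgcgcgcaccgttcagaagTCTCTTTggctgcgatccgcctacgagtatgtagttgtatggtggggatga
Gas5, chr1:161035116-161035215, plus strand: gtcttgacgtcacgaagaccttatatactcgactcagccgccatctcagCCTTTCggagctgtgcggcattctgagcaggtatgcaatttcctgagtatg
Snhg1, chr19:8723437-8723536, plus strand: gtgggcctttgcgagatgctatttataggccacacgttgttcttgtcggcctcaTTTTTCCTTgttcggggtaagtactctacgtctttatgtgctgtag
Snhg16, chr11:116671610-116671709, plus strand: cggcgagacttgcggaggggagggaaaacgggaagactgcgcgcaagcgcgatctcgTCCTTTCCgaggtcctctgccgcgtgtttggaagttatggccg
Snhg5, chr9:88522848-88522947, minus strand: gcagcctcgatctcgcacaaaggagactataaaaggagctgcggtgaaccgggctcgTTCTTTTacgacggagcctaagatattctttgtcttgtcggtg
RefSeq listed 11 starts for 9 of the hosts, Gas5 and Snhg17 having more than 1, and Snhg6 was not in the table. The longest run was 9 bases in Snhg12 and Snhg1, 8 in Snhg16, and 7 in Snhg8, Snhg5 and the first start of Snhg17. It was 6 at the printed start of Gas5 and the second start of Snhg17. At starts not printed it was 5 in Snhg3, 4 in Zfas1 and 3 at the other Gas5 start. The median over all listed starts was 5. A run of at least 7 was present at 6 of the 11 host starts and at 24.3% of all 32851 listed starts. In Snhg12, in Snhg8 and at the printed start of Gas5 the run spans the annotated first base, and in Snhg1, Snhg16 and Snhg5 it lies downstream of it. The letters TATA, which read the same on both strands, lay with all their bases between 40 and 21 bases before the start at 4 of the 11 host starts (Snhg12, Snhg8, Snhg1 and the printed start of Gas5) and at 5.34% of all starts. GTAAGT, the letters of a strong 5' splice site, occurred in the first 50 transcribed bases of Snhg1 only among the host starts, and in 0.904% of all starts on the sense strand and 0.487% on the other. These matches describe letters and are not evidence of a working site.

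Total counts were 7174772 to 17752887 per library, and the 0 h replicate 2 library was the shallowest. Replicates correlated across genes at 0.969 (0 h) and 0.965 (5 h) on log2 CPM (counts scaled to library size). Nothing in the labels says that replicates came from separate cultures, so the p-values may measure technical spread. All 6 pluripotent stem cell markers examined were present. Their summed levels were 2406 to 2526 CPM at 0 h and 2740 to 2809 CPM at 5 h. Of them 3 passed by edgeR, Sox2 (log2 fold change 0.86) and Pou5f1 (0.36) as higher and Nanog (-0.27) as lower. A call in either direction was given to 43.2% of all tested genes. With the mitochondrial scaling given below, 0 of the 6 rose and 5 fell, beside 2.28% and 51.2% of all tested genes. The 11 markers of endoderm, mesoderm, neural and fibroblast cells summed to 40.8 to 42.9 CPM at 0 h and 50.4 to 60.3 CPM at 5 h, with Postn at 0 throughout and none of the 6 tested ones past the threshold. Mitochondrially encoded genes took 4.34% to 4.41% of counts at 0 h and 6.03% to 7.17% at 5 h. The part of these differences in the host values was not tested, other than by the scalings given below. In bulk RNA, fewer cells of a kind and less RNA per cell cannot be told apart.

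After 5 h of IAA, labelled RNA of 9 of the 10 hosts was higher relative to the other genes, by 1.79-fold (Snhg5) to 3.66-fold (Snhg12), and none fell. These 9 passed edgeR's quasi-likelihood test at a Benjamini-Hochberg adjusted p under 0.05, a call that 22.0% of all 17344 tested genes received in the upward direction, 21.2% in the downward direction and 43.2% in either. In the same 9 hosts both 5 h libraries lay above both 0 h libraries, which held for 36.0% of all tested genes, with 37.5% the other way round. A rise of at least 2-fold that passed was seen in 8 hosts and in 7.60% of all tested genes. The median log2 fold change was 1.36 for the hosts and -0.02 for all tested genes. Together the hosts took 0.256% and 0.275% of all counts in the 0 h libraries and 0.569% and 0.578% in the 5 h libraries. Gas5 alone supplied 35.2% to 38.4% of the host counts in every library.

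**Figure D1:**
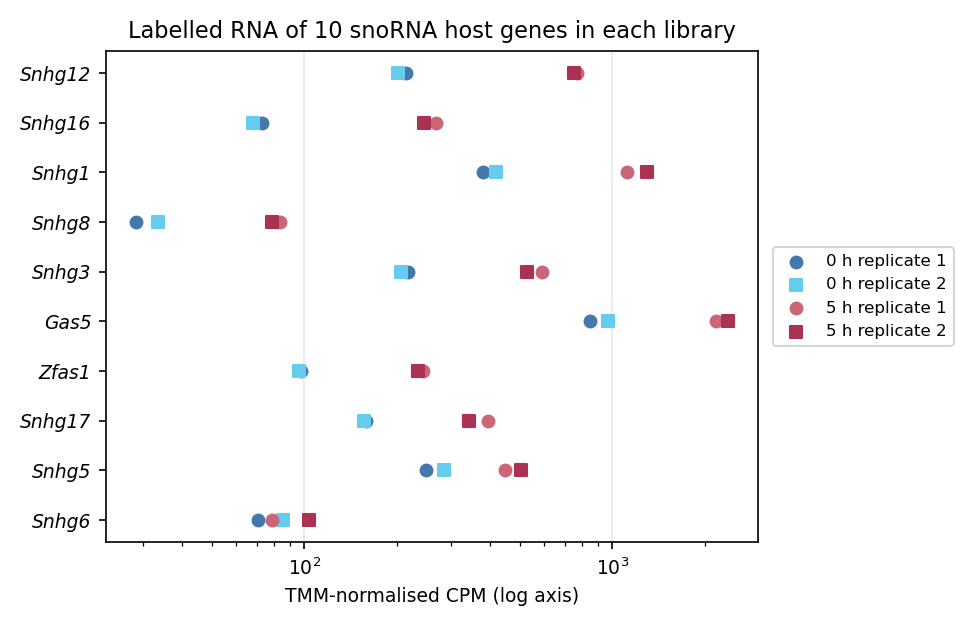
TMM-normalised CPM (log axis) of the 10 hosts in each of the 4 libraries, ordered by fold change. The 0 h and 5 h points separate in 9 hosts, from Snhg12 at the top to Snhg5, and overlap in Snhg6.

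Host levels are TMM-normalised CPM, given for 0 h replicates 1 and 2 and then for 5 h replicates 1 and 2. They are not compared between hosts, because exon lengths were not used here.

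Among hosts of box H/ACA snoRNAs, Snhg12 (ENSMUSG00000086290.9, chromosome 4 from 132308678 to 132311024, mm10) carries the H/ACA snoRNAs Snora16a, Snora44 and Snora61 and the C/D snoRNA Snord99. Its level was 213 and 201 CPM at 0 h and 765 and 753 CPM at 5 h. The gap between the times was far wider than that between replicates, at 1.87 ± 0.09 (SE) on the log2 scale and an edgeR Benjamini-Hochberg adjusted p of 4.38e-06. Snhg3, on chromosome 4 from 132351933 to 132353686, carries Snora73a and Snora73b, the U17 snoRNAs that act in early cleavage of ribosomal RNA precursors. It stood at 216 and 207 CPM at 0 h and at 590 and 527 CPM at 5 h. This was a 2.64-fold rise (log2 1.40 ± 0.09, edgeR Benjamini-Hochberg adjusted p = 8.02e-06).

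Snhg8, the shortest host (chromosome 3 from 123507552 to 123508336), carries Snora24. It had 28.4 and 33.5 CPM at 0 h and 83.1 and 78.8 CPM at 5 h. The groups did not overlap, and the log2 fold change was 1.40 ± 0.13. Snhg17, the longest host (chromosome 2 from 158353700 to 158361522), is known for H/ACA snoRNAs of the Snora71 family, and the 2 snoRNAs RefSeq places inside it matched no row of the table. It went from 159 and 157 CPM to 394 and 343 CPM, a log2 fold change of 1.23 ± 0.10, and the 5 h libraries differed from each other more than the 0 h libraries did.

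Among hosts of box C/D snoRNAs, Gas5 (ENSMUSG00000053332.13, chromosome 1 from 161034601 to 161038539), named for its accumulation in growth-arrested cells, holds 8 snoRNAs including Snord47. It stood at 849 and 965 CPM at 0 h and at 2163 and 2382 CPM at 5 h. The difference between the times exceeded the spread of either group, at a log2 fold change of 1.33 ± 0.09 (edgeR Benjamini-Hochberg adjusted p = 1.01e-05). Snhg1, on chromosome 19 from 8723487 to 8726326, holds 8 snoRNAs including Snord22. It rose from 381 and 419 CPM to 1112 and 1294 CPM. That was 3.01-fold, or 1.59 ± 0.10 on the log2 scale, with replicate 2 the higher library at both times.

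Snhg16, on chromosome 11 from 116671660 to 116675798, carries Snord1a, Snord1b and Snord1c. It had 72.8 and 68.2 CPM at 0 h and 268 and 244 CPM at 5 h, 3.63-fold higher (log2 1.86 ± 0.10, edgeR Benjamini-Hochberg adjusted p = 6.85e-06). Zfas1, on chromosome 2 from 167062934 to 167065862, starts opposite Znfx1 and carries Snord12. It changed from 97.4 and 95.8 CPM to 243 and 233 CPM. Replicates of Zfas1 were close at both times, and the log2 fold change was 1.30 ± 0.09.

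The smallest changes belonged to Snhg5 and Snhg6. Snhg5, on chromosome 9 from 88521052 to 88522897 and known as a U50 host, had 248 and 284 CPM at 0 h and 449 and 504 CPM at 5 h. Its log2 fold change of 0.84 ± 0.10 passed (edgeR Benjamini-Hochberg adjusted p = 0.000120). Snhg6, on chromosome 1 from 9942025 to 9944118, carries Snord87. It had 70.8 and 85.4 CPM at 0 h and 78.4 and 103 CPM at 5 h, so that the groups overlapped. Its log2 fold change of 0.22 ± 0.15 did not pass (edgeR Benjamini-Hochberg adjusted p = 0.259). Without 5 h replicate 1 it was 0.41 and passed (edgeR Benjamini-Hochberg adjusted p = 0.0244), and over 11 alternatives its adjusted p ranged from 0.00924, for a fall with mitochondrial scaling, to 0.918.

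Ordered by log2 fold change, Snhg12 and Snhg16 stood 0.01 apart, within the combined standard error of 0.13. Snhg8, Snhg3, Gas5, Zfas1 and Snhg17 lay within 0.08 of each other step by step, less than the combined standard errors of 0.13 to 0.16. The step from Snhg16 to Snhg1 was 0.27 (combined SE 0.14), that from Snhg1 to Snhg8 was 0.19 (combined SE 0.17), that from Snhg17 to Snhg5 was 0.39 (combined SE 0.14) and that from Snhg5 to Snhg6 was 0.62 (combined SE 0.18). Differences between hosts were not tested. In each of the 4 pairs of a 5 h and a 0 h library the median host difference lay between 1.29 and 1.40 on the log2 scale, against 0.06 between the 0 h libraries and -0.04 between the 5 h libraries.

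The size of the rise depended on the scaling, and the sign of the log2 fold change did so in Snhg5 and Snhg6. Of the negative values only that of Snhg6 with mitochondrial scaling passed. The median gene moved by -0.28 when library totals were used and by -0.86 when the mitochondrially encoded genes were used. With library totals 9 hosts rose and the host median was 1.10, where 13.2% of all tested genes rose and 30.3% fell. With mitochondrial scaling 7 hosts rose, 1 fell and the median was 0.51, where 2.28% of all tested genes rose and 51.2% fell. With DESeq2, no filter, a stricter filter, counts divided by 4 and a replicate block, 9 hosts rose and 0 fell. The tested genes that rose were then 19.4%, 14.9%, 28.5%, 29.2% and 22.1%, in that order, and those that fell 16.8%, 13.9%, 30.1%, 30.2% and 20.4%. With mitochondrial scaling Snhg12 (1.03) and Snhg16 (1.02) had the highest log2 fold changes of the hosts. There Snhg17 (0.39) no longer passed (edgeR Benjamini-Hochberg adjusted p = 0.0813), Snhg5 was at -0.02, and Snhg6 fell by 0.65 on the log2 scale.

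**Figure D2:**
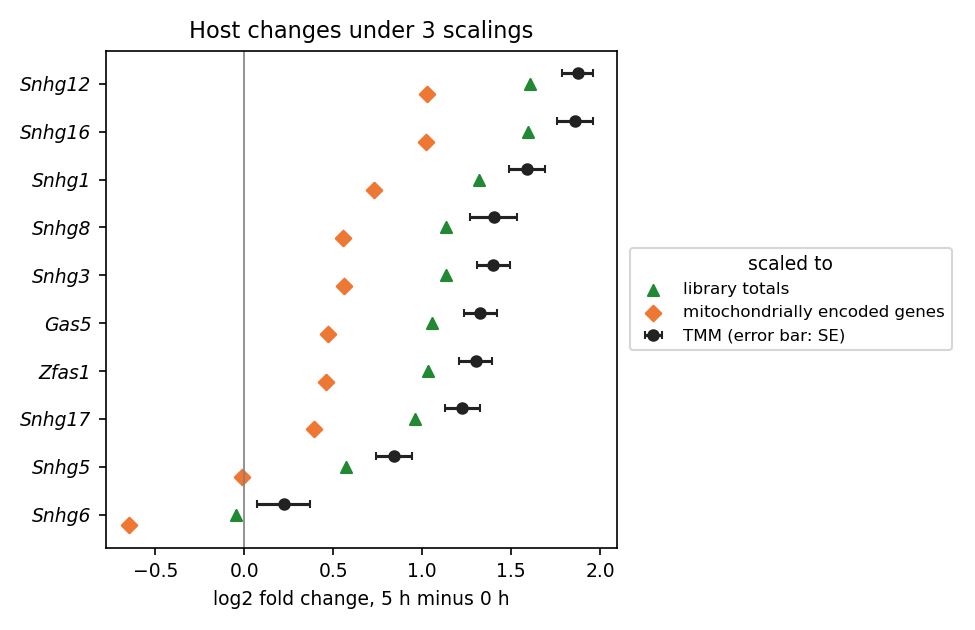
log2 fold change (5 h minus 0 h) of each host when libraries were scaled by TMM (circles, with SE), by library totals (triangles) or by mitochondrially encoded genes (diamonds). Every host moves left under the other scalings, and of the 10 hosts Snhg6 (-0.05 with library totals, -0.65 with mitochondrial scaling) and Snhg5 (-0.02 with mitochondrial scaling) cross 0.

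The snoRNAs inside the hosts gave few counts. Of the 34 placed by RefSeq, 15 had a symbol found in the count table and 19 did not. The 15 had 16 rows, since Snora16a had 2. Of these rows 10 never exceeded 3 counts and 7 of them stood at exactly 1 in every library, as did 262 rows of the whole table. No fold is given for them. They include the 3 Snord1 snoRNAs of Snhg16, at 1 to 2 counts, and Snord47 of Gas5, at 1, beside host counts of 536 to 31321. Snord22 in Snhg1 had 11, 4, 10 and 6 counts, and Snora61 in Snhg12 had 2, 1, 7 and 10, both below the filter. Snord78, Snord80, Snord50a and Snord50b, known as Gas5 and Snhg5 snoRNAs, could not be placed by position and had at most 8 counts.

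The 4 tested snoRNA rows all rose, 2 of them Snora73 copies that are similar to each other, so that reads may be split between them. Snora73b (chromosome 4 from 132352322 to 132352526) had 27.5 and 24.8 CPM at 0 h and 58.0 and 51.4 CPM at 5 h, a log2 fold change of 1.06 ± 0.14. Snora73a (132352775 to 132352979) had 15.4 and 15.5 CPM at 0 h and 51.5 and 46.5 CPM at 5 h, at 1.66 ± 0.15. The host Snhg3, at 1.40, lay between them. Gm23201, a snoRNA of Zfas1, went from 8.44 and 8.14 CPM to 19.3 and 21.9 CPM, and its log2 fold change of 1.31 ± 0.21 was close to the 1.30 of Zfas1. Snord87 in Snhg6 had 4.99 and 5.73 CPM at 0 h and 9.18 and 12.0 CPM at 5 h. It passed at a log2 change of 0.99 ± 0.28, with an edgeR Benjamini-Hochberg adjusted p of 0.0155, beside 0.22 for Snhg6. Snord87 no longer passed without 0 h replicate 1 (0.88) or without 5 h replicate 2 (0.79), nor with library totals (0.72), and with mitochondrial scaling only Snora73a passed of the 4. The whole table had 141 Snora and Snord rows, of which 35 stood at exactly 1 in every library and 58 were tested. Of the 58, which include Snora73a, Snora73b and Snord87, 37 rose and 0 fell by edgeR with TMM. Their calls with mitochondrial scaling are not given here. Among all tested genes 22.0% rose and 21.2% fell with TMM, and 2.28% rose and 51.2% fell with mitochondrial scaling.

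A snoRNA's count as a share of its host's count does not depend on scaling. For Snord87 it was 7.05% and 6.71% of Snhg6 at 0 h and 11.7% and 11.6% at 5 h. Snora73b went from 12.7% and 12.0% of Snhg3 to 9.83% and 9.77%, and Snora73a from 7.13% and 7.51% to 8.73% and 8.82%. In these 3 the times did not overlap, with Snora73b lower and the others higher at 5 h. Gm23201 ranged from 7.96% to 9.41% of Zfas1 at 5 h, around its 8.50% to 8.66% at 0 h. An exact two-sided permutation test of 2 against 2 libraries cannot go below p = 0.333, which is what the 3 separated shares gave. Reads of a snoRNA, of the intron around it and of unspliced host RNA could not be told apart in these counts.

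**Figure D3:**
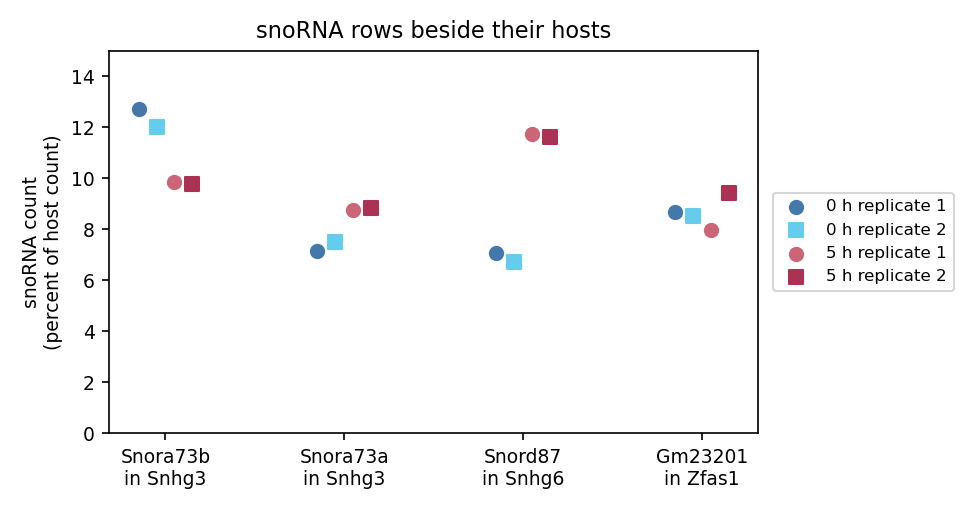
Count of each tested snoRNA row as a percentage of its host's count (linear axis from 0) in the 4 libraries. Snord87 moves from about 7.05% and 6.71% to 11.7% and 11.6% of Snhg6, Snora73b moves down, Snora73a moves up, and the Gm23201 points overlap.

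Of the 20 nearest tested protein-coding genes, 1 on each side of each host, 3 rose, 6 fell and 11 did not pass, beside 22.0% of all tested genes that rose and 21.2% that fell. In 19 of the 20 pairs the host's log2 fold change was the higher (the exception was Tram1l1, 812700 bp from Snhg8). Of all tested genes, only 2.55% (for Snhg12) to 39.5% (for Snhg6) had a higher log2 fold change than the host. Most tested genes thus lay below each host, and the 19 pairs do not by themselves set the neighbours apart. Within 10 kb there were 12 of these neighbouring genes, of which 1 rose and 4 fell.

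Zbtb37, a zinc finger gene on the opposite strand, starts 248 bp from the Gas5 start that is not printed above. The spans of the genes overlap by 264 bp, and the printed Gas5 start lies outside the Zbtb37 span. Zbtb37 had 276 and 265 CPM at 0 h and 90.8 and 93.5 CPM at 5 h. Labelled Zbtb37 RNA thus fell by 1.55 on the log2 scale (SE 0.09, edgeR Benjamini-Hochberg adjusted p = 6.85e-06). The count ratio of Gas5 to Zbtb37, whose change is free of scaling, was 3.08 and 3.64 at 0 h and 23.8 and 25.5 at 5 h.

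Zfas1 and Znfx1 start 81 bp apart on opposite strands and overlap by 82 bp. Znfx1, which encodes a helicase-like zinc finger protein, had 76.3 and 80.0 CPM at 0 h and 55.1 and 57.6 CPM at 5 h and fell by 0.47 (SE 0.11). The ratio of Zfas1 to Znfx1 counts was 1.28 and 1.20 at 0 h and 4.41 and 4.05 at 5 h. Slc3a2, an amino acid transporter heavy chain gene, lies 117 bp from Snhg1 on the opposite strand, and the spans do not overlap. It had 280 and 256 CPM at 0 h and 273 and 237 CPM at 5 h. With TMM it did not pass (log2 -0.07 ± 0.10). It did pass as lower with both other scalings. The ratio of Snhg1 to Slc3a2 counts was 1.36 and 1.64 at 0 h and 4.07 and 5.45 at 5 h. Where strands are not separated, reads in overlaps such as that of Zfas1 and Znfx1 could be counted for either gene. The strand setting was not given in the sources used here.

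For the other hosts, Rcc1, 6182 bp from Snhg3, had a log2 fold change of -0.04 ± 0.10, and Phactr4, on its other side, rose by 0.38 ± 0.11 and was at -0.47 with mitochondrial scaling. Trnau1ap, 738 bp from Snhg12, was at -0.54 ± 0.21 and did not pass. Prcd, near Snhg16, had 15 and 7 counts at 0 h and 0 at 5 h in both libraries, at least 3.13-fold lower against a floor of 3 counts per library averaged over the group. Ralgapb, 48307 bp from Snhg17, fell by 1.38 on the log2 scale (SE 0.13).

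**Figure D4:**
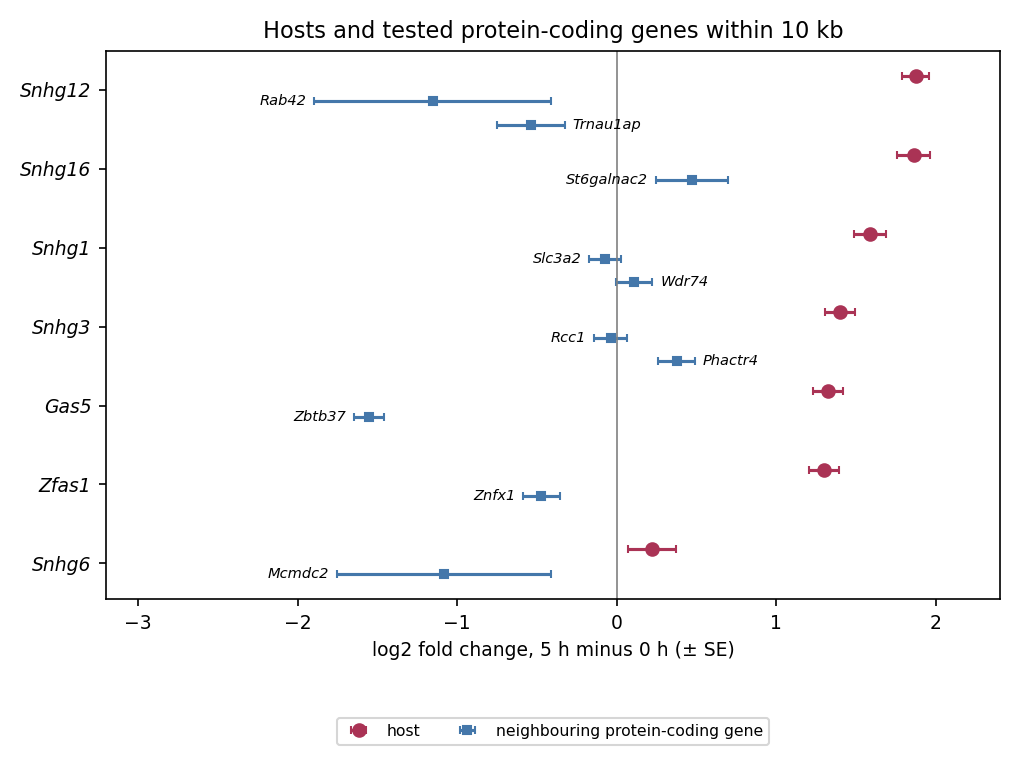
log2 fold change (5 h minus 0 h, TMM, ± SE) of hosts (circles) and of 10 of the 12 tested protein-coding genes within 10 kb or overlapping (squares); the other neighbours, among them Prcd with 0 counts at 5 h, and hosts without such a gene are not drawn. Each host drawn lies to the right of its neighbours, and Gas5 (1.33) lies far to the right of Zbtb37 (-1.55). The hosts also had higher log2 fold changes than most tested genes.

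Size and gene class gave a frame for these values. Among 365 other tested lncRNA genes with spans in the hosts' range, 48 (13.2%) rose and 44 fell, with a median log2 fold change of 0.02. Among 2416 tested protein-coding genes in that range, 953 (39.4%) rose and 199 fell, with a median of 0.43, which was -0.41 with mitochondrial scaling. The corresponding host values were 9 of 10 and 1.36, and 0.51 with mitochondrial scaling. Both comparison sets left out only the 10 hosts, so other listed hosts such as Dancr and Rpl12 remained in them. Neither set was matched to the hosts for expression level. Of the 17344 tested genes, 443 had a higher log2 fold change than Snhg12 and 6853 a higher one than Snhg6.

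For other host genes the counts were as follows, beside 22.0% of all tested genes that rose and 21.2% that fell with TMM. With mitochondrial scaling these shares of all tested genes were 2.28% and 51.2%. In 13 tested rows of 14 further non-coding genes listed as hosts 7 rose and 1, Meg3, fell, with a median of 0.90, and with mitochondrial scaling 1 rose and 6 fell. RefSeq places a snoRNA inside 10 of these genes, and of their 9 tested rows 4 rose and 0 fell by edgeR, with a median of 0.36. Those that rose included Epb41l4aos (1.67 ± 0.15) and Dancr (1.19 ± 0.10). Snhg11 (-0.001 ± 0.11) and the long imprinted hosts Snhg14 (-0.40 ± 0.19) and Rian (-0.18 ± 0.10), did not pass. Mir17hg (0.96 ± 0.10) and Snhg10 (1.81 ± 0.36), in which RefSeq places no snoRNA, rose as well. Snhg10 had 42 and 14 counts at 0 h and 92 and 72 at 5 h. All 30 protein-coding hosts listed hold a snoRNA, and 26 rose and 1, Nop58, fell, at a median of 0.86. Scaled by mitochondrial genes, 3 were higher and 7 lower. The ribosomal protein gene Rpl12 (1.47 ± 0.08) and the elongation factor gene Eef1b2 (1.44 ± 0.10) had the highest values of that list. Many of its genes encode parts of the translation machinery, so hosting and that role cannot be told apart in the list.

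Genes that build snoRNPs did not move as one. Of the box C/D core proteins, the methyltransferase gene Fbl (0.89 ± 0.12), Nop56 (1.03 ± 0.08) and Snu13 (0.82 ± 0.10) rose, and Nop58, itself a host, fell by 0.61 on the log2 scale (SE 0.11). None of the 4 passed as higher with mitochondrial scaling. Of the box H/ACA core, Nhp2 rose (0.68 ± 0.12, and -0.17 with mitochondrial scaling), and the pseudouridine synthase gene Dkc1 (-0.18 ± 0.09), Nop10 (-0.02 ± 0.15) and Gar1 (-0.04 ± 0.13) did not pass. Of 10 assembly factors 5 rose and 0 fell by edgeR with TMM, with Nolc1 at 0.47 ± 0.09, Znhit3 at 0.76 ± 0.15 and Znhit6 at 0.64 ± 0.14. With mitochondrial scaling 0 of the 10 rose and 2 fell. The shares of all tested genes were 22.0% higher and 21.2% lower with TMM, and 2.28% and 51.2% with mitochondrial scaling.

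Genes acting on released introns and on host exons were also mixed. Of 6 tested genes for debranching and trimming 4 rose and 1 fell, against 0 and 2 when scaled by mitochondrial genes. Dbr1, the lariat debranching enzyme gene, was at 0.55 ± 0.11, the nuclear exosome gene Exosc10 at 0.44 ± 0.10, and the ribonuclease gene Parn fell by 0.71 on the log2 scale (SE 0.13). Of 10 genes of nonsense-mediated decay 4 rose and 1 fell, against 0 and 6 when scaled by mitochondrial genes. Those that rose included Smg8 (0.78 ± 0.09) and Smg5 (0.66 ± 0.09), and Smg1 fell by 0.32 (SE 0.08). These shares stand beside 22.0% of all tested genes that rose and 21.2% that fell with TMM, and 2.28% and 51.2% with mitochondrial scaling.

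The 5 tested genes with a mean of at least 20 CPM whose profile over the 4 libraries was closest to the median host were Sod1, Mis18a, Sart1, Brf1 and Safb. The measure was the Euclidean distance between log2 CPM values centred on each gene's mean, from 0.0458 for Sod1 to 0.0966 for Safb, and with 4 libraries in 2 groups it mainly reads the size of the change. Among the hosts Zfas1 was closest to that median profile (0.0796) and Snhg6 the farthest (1.19).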

How the data were processed

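The 4 libraries (2 at 0 h, 2 at 5 h of IAA) were grouped by their titles. The authors deposited whole-number values per gene, here taken for estimated counts: per the file headers the layout matches a StringTie export, and low values do not fall off smoothly. The submitters' processing notes name mm10, DESeq2 1.42.0, StringTie 2.2.1 and HISAT2 2.2.1 without their roles. Values from coverage are not reads, so counting intervals are not given. Rows were kept by filterByExpr (17344 of 55401) and fitted over the whole table in edgeR 4.0.16 with TMM and the quasi-likelihood test, Benjamini-Hochberg adjusted, with no replicate block. The SE is the log2 fold change divided by the square root of F. The fit was tested on simulated data with few changed genes, as many up as down. That check does not bear on the choice of scaling. Positions, classes and promoters came from RefSeq tables of GRCm38.p6, to which mm10 corresponds. The gene table gives no strand, so snoRNAs were assigned to hosts by span alone, where the planned rule asked for the same strand. A floor of 3 counts was 0.154 to 0.382 CPM. The members and lists were chosen with earlier results of these data known. The genes named are the hosts, their tested snoRNAs, the nearest tested protein-coding gene on each side (some summarised), up to 3 genes of each list by adjusted p (all of a list of 8 or fewer), and 5 genes of like profile, except that some genes of this rule are not reported here by name; others were chosen after their values were seen. Alternatives were DESeq2, 2 scalings, 2 filters, counts divided by 4, a replicate block and leaving out each library.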

Additional observations from a re-analysis of the deposited data

How the results depend on the processing

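With DESeq2, no filter, a filter of 50 counts in 2 libraries, counts divided by 4 and the replicate block, 9 hosts rose, 0 fell and 4 snoRNA rows rose, with host medians from 1.32 to 1.37. The replicate block gave 9 hosts and a median of 1.36 and changed no call on a host; same-numbered libraries shared little deviation (correlation 0.0505 across genes), so the numbers were not taken as pairs. Library totals gave a median of 1.10 and a log2 fold change of -0.049 for Snhg6, which did not pass. Mitochondrial scaling gave a median of 0.51, 1 host that fell and 1 snoRNA row that rose, with Snhg5 at -0.016 and Snhg6 at -0.65. Leaving out single libraries gave host medians from 1.29 to 1.39, where a group of 1 was assumed to vary like the other. The cause of these shifts was not tested. Of the 16 snoRNA rows, 12 had too few counts to be tested.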
